A study of Mus musculus with 4 samples.

Results

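Interferon-stimulated genes are the genes that cells turn on when interferon binds its receptor. A list of 44 such genes was read in single-cell RNA sequencing of sorted mouse bone marrow (BM) macrophages. Members were found by symbol in the features file, which holds 31053 genes, and 43 of the 44 had a row. Mx2 was not analysed here. All 43 were among the 13869 genes tested.

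BM macrophages came from femur and tibia of male C57BL/6J mice and were grown with 30 ng/mL M-CSF, the growth factor of macrophages, for 4 days. The mice were 4 weeks old by the study's description of this experiment and 4 to 6 weeks by its general methods. RM1 cells, a Ras- and Myc-driven prostate cancer line of the same mouse strain, were made apoptotic with 30 min of UV light and labeled with the dye CFSE. After 16 to 18 h of co-culture in 0.25% FBS, macrophages that stained for the surface protein F4/80 and carried CFSE were sorted as efferocytic, meaning that they had taken up RM1 material. Macrophages with F4/80 staining alone were sorted as non-efferocytic. The 2 experiments each held 1 library of either kind, and the 2 kinds were set against each other to ask what uptake of apoptotic cancer cells does to the macrophage transcriptome. All groups shared the M-CSF culture and the sort on F4/80. The study's methods give a minimum number of mice per group for its macrophage experiments but not the number behind each library. P-values come from these 4 libraries and do not measure spread between mice. With the experiment as a block few residual degrees of freedom are left, so that p-values rest largely on spread pooled over genes.

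Type I interferons (the interferon-α family and interferon-β) and interferon-γ bind different receptors on the cell surface. JAK kinases on these receptors activate STAT proteins. STAT proteins bind DNA either together with IRF9, at the interferon-stimulated response element (ISRE), or without it, at the gamma-activated site (GAS). Macrophages are known for a low, tonic expression of these genes without infection and for a strong rise after viral or bacterial nucleic acid is sensed.

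Sequences before the start site are shown because members called lower, called higher and not called in efferocytic macrophages all included genes with the same core motif. RefSeq promoters (GRCm38.p6) were matched by symbol for 34 of the 43 members, each read from 250 bases before to 50 after the start. The ISRE core was searched as GAAANNGAAA and the GAS as TTCNNNGAA, on both strands, and a base could belong to more than 1 match. The ISRE core lay in the window of 20 of the 34 members, against 3.99% of 27025 genes with such a promoter. The GAS lay in that of 9 members, against 9.55% of genes. Of members called lower in efferocytic macrophages 11 of 18 held the ISRE core, of members called higher 2 of 3, and of members not called 7 of 13. Printed are the 250 bases before the start for 3 lower members that hold the ISRE core (Cxcl10, Ifit1bl1 and Gbp5), for the 2 higher members with an ISRE core (Oas1a and Oas3), and for Irf1 as a member with a GAS and no ISRE core. Capitals mark every match. The window of Cxcl9 held neither motif. Iigp1 was not among the 34 members read, so that its promoter was not searched. Ifit1bl1 and Irf1 each have 2 listed starts, of which 1 is shown.
Cxcl10 (chr5:92348890-92349139, minus strand): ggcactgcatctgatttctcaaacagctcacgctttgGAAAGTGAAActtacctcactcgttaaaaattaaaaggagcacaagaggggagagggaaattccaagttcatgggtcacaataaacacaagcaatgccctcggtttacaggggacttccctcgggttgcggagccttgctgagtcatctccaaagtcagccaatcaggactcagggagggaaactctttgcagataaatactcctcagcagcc
Ifit1bl1 (chr19:34601969-34602218, minus strand): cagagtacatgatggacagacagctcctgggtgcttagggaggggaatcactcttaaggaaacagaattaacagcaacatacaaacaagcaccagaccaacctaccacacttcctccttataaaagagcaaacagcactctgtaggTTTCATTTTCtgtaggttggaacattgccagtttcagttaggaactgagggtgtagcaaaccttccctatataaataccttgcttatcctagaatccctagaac
Gbp5 (chr3:142496684-142496933, plus strand): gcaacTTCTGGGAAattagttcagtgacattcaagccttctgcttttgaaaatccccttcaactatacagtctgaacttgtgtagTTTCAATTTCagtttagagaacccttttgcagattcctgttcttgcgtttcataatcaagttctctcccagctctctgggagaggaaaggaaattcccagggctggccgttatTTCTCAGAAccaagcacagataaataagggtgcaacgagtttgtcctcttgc
Oas1a (chr5:120907526-120907775, minus strand): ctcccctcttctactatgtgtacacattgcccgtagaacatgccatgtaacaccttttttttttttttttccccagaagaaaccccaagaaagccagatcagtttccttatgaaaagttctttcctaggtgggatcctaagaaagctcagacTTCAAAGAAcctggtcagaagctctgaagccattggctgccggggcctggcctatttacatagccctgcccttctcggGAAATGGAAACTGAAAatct
Oas3 (chr5:120777660-120777909, minus strand): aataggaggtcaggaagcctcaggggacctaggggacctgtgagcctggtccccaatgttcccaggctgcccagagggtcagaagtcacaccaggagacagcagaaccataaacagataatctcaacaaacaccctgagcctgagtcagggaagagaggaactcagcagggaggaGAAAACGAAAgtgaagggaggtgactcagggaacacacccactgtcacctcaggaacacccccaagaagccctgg
Irf1 (chr11:53769764-53770013, plus strand): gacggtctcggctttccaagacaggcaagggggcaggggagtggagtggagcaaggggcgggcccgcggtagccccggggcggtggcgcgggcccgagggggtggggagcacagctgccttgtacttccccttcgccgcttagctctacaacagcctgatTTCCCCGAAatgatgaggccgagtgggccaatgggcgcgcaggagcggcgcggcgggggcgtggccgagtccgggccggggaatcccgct
Counted from the start site, the ISRE core of Cxcl10 began at base −213, that of Ifit1bl1 at −104, that of Oas3 at −75 and that of Gbp5 at −165. Gbp5 also held GAS matches at −245 and −52. In Oas1a 2 overlapping ISRE cores began at −20 and −14, and a GAS match at −98. In Irf1 the GAS match began at −90. A match describes letters in a window and does not show that a factor bound there.

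Barcodes kept as cells had 200 genes or more, 1000 UMIs or more and no more than 10% of UMIs from mitochondrial genes. They numbered between 6695 and 13411, with a median of 9600 to 11146 UMIs per cell in non-efferocytic and 17171 to 17476 in efferocytic libraries. The study states the same cut-offs but lists fewer cells for every library, with the widest gap in non-efferocytic macrophages of Experiment 2. The cells read here are thus not the study's set, and the cause was not tested. A UMI marks 1 captured mRNA molecule, and CPM is UMIs of a gene per 1000000 UMIs of a library's cells. The sums per library cannot tell fewer cells of a type from less RNA per cell. Macrophage markers summed to 35052 and 30275 CPM in non-efferocytic and 28419 and 21281 in efferocytic libraries (Experiment 1, then 2), with 6 of 8 markers lower in both experiments. Most of the sum was Lyz2 (32090 and 27532 CPM against 25872 and 18674). Cd68 was higher in both experiments (964 and 987 against 1333 and 1477), and Mrc1 was lower in Experiment 1 and higher in Experiment 2. All 10 neutrophil-lineage markers were lower in both experiments (3090 and 3380 CPM summed against 973 and 716), as were all 5 monocyte markers (68.8 and 77.8 against 26.0 and 15.8) and 5 of 6 fibroblast markers (144 and 120 against 46.0 and 52.3). Of 6 markers of plasmacytoid dendritic cells, a list that holds Bst2 itself, Klk1 was at 0 in every library and Siglech at or under 0.426 CPM. In this list 3 markers were lower in both experiments, among them Tcf4 (137 and 109 CPM in non-efferocytic against 73.0 and 68.5 in efferocytic libraries). Cox6a2 was higher in both (2.58 and 2.27 against 4.05 and 2.95). The 2 libraries of Experiment 2 shared 118 cell barcodes, where other pairs shared 14 to 23. Barcodes of 500 to just under 1000 UMIs numbered 36048 in non-efferocytic macrophages of Experiment 2 and 1048 to 2046 elsewhere.

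The 43 members together gave 2640 CPM in non-efferocytic and 2439 in efferocytic macrophages of Experiment 1, and 1907 and 1431 in Experiment 2. The sum differed more between experiments than between groups. In all, 39 of the 43 members (90.7%) were lower in Experiment 2 in both groups, against 23.6% of all genes tested. Bst2 and Ifi27l2a gave 55.2% to 61.0% of the members' UMIs. The 41 other members summed to 1182 and 1017 CPM in Experiment 1 and 786 and 558 in Experiment 2.

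**Figure D1:**
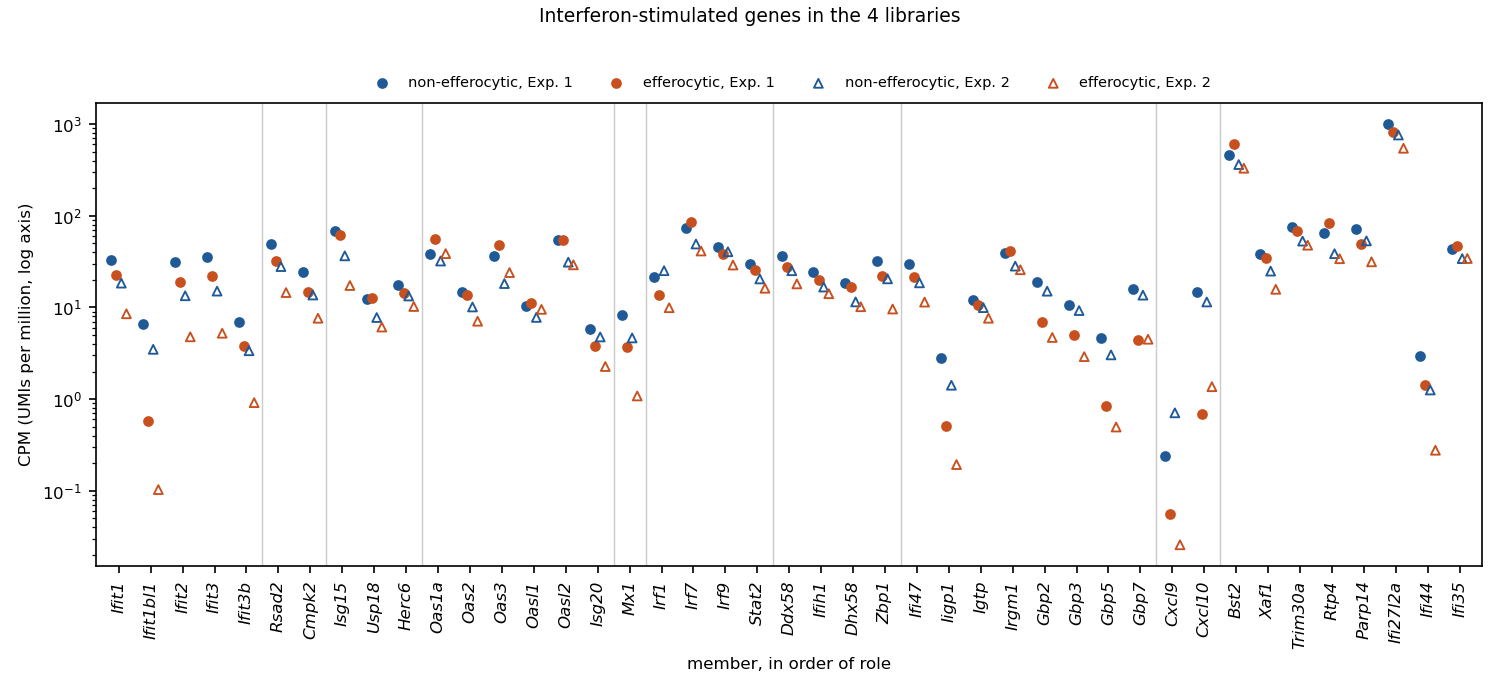
Level of each of the 43 members in the 4 libraries, as CPM on a log axis, with members in order of their role and grey lines between roles. Blue marks are non-efferocytic and orange marks efferocytic libraries, filled circles Experiment 1 and open triangles Experiment 2. Cxcl10, Cxcl9, Ifit1bl1, Iigp1 and Gbp5 show the widest gaps between the groups, while Bst2 and Ifi27l2a have the highest CPM, which is not scaled to gene length.

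With the experiment as a block, 22 members were called lower and 3 higher in efferocytic macrophages, and 18 were not called (edgeR quasi-likelihood test, Benjamini-Hochberg adjusted p under 0.05 over all genes tested). This compares with 19% of all tested genes called lower and 19.9% called higher, so that 51.2% and 6.98% of the members passed. The median log2 fold change was −0.48 over the members and −0.02 over all genes. Without the block, 9 members were called lower and 0 higher. The same fit without the block called 7.74% of all genes lower and 9.27% higher, and 9 members, all lower, had an unadjusted p under 0.05. A fit that leaves out 1 library has no residual spread with the block, and was run without it. Leaving out the efferocytic library of Experiment 1, 20 members were called lower and 0 higher, beside 8.86% and 11.5% of all genes. Leaving out that of Experiment 2, 6 were called lower and 1 higher, beside 4.04% and 4.44%. Leaving out the non-efferocytic library of Experiment 1 or of Experiment 2 gave 0 calls among the members by edgeR, with 10 and 9 members at an unadjusted p under 0.05, but these fits called almost nothing (0.0141% of all genes lower and 0 higher in the former, 0 of 14036 genes in the latter). The 9 called from all libraries without the block were Ifit1bl1, Irf1, Iigp1, Gbp2, Gbp3, Gbp5, Gbp7, Cxcl9 and Cxcl10. Among these, Cxcl9 passed the filter on low counts only through the non-efferocytic libraries, so that its call is a description and not support.

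Both values of a member on the efferocytic side lay below both non-efferocytic values for 13 members (30.2%), fewer than the 44.7% of all genes, and above them for 1 (2.33%, against 22.2%). Within an experiment, where 1 library per group allows no test, 33 members had a lower CPM in efferocytic macrophages in both experiments, 4 a higher one in both, and 6 went opposite ways. Over all genes these shares were not counted, but genes without overlap set a floor. At least 44.7% of all genes were thus lower in both experiments and at least 22.2% higher in both. A fall of at least 1.5-fold in CPM was seen for 17 members (39.5%) in Experiment 1, against 21.3% of all genes, and for 23 members (53.5%) in Experiment 2, against 20.2%. A rise of at least 1.5-fold was seen for 0 members in either, against 4.67% and 7.24% of genes. The median log2 CPM ratio of the members was −0.39 in Experiment 1 and −0.70 in Experiment 2, beside −0.16 and −0.08 over all genes.

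Efferocytic cells held more UMIs each, and this changes the direction of the members as a group. Scaled to UMIs per cell instead of TMM, 11 members were called higher and 11 lower (25.6% each), beside 49.9% of all genes higher and 4.23% lower, and the members' median log2 fold change was 0.14 where that of all genes was 0.60. Relative to the median of all genes the members' median was −0.46 in both scalings. A change of scaling shifts all genes nearly alike, so that this equality was set in advance and is not support. Statements on lower levels are therefore about a member's share of the captured mRNA. Called lower under both scalings were Ifit1bl1, Ifit3b, Mx1, Iigp1, Gbp2, Gbp3, Gbp5, Gbp7, Cxcl9, Cxcl10 and Ifi44, where the calls of Cxcl9 are again a description only.

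**Figure D2:**
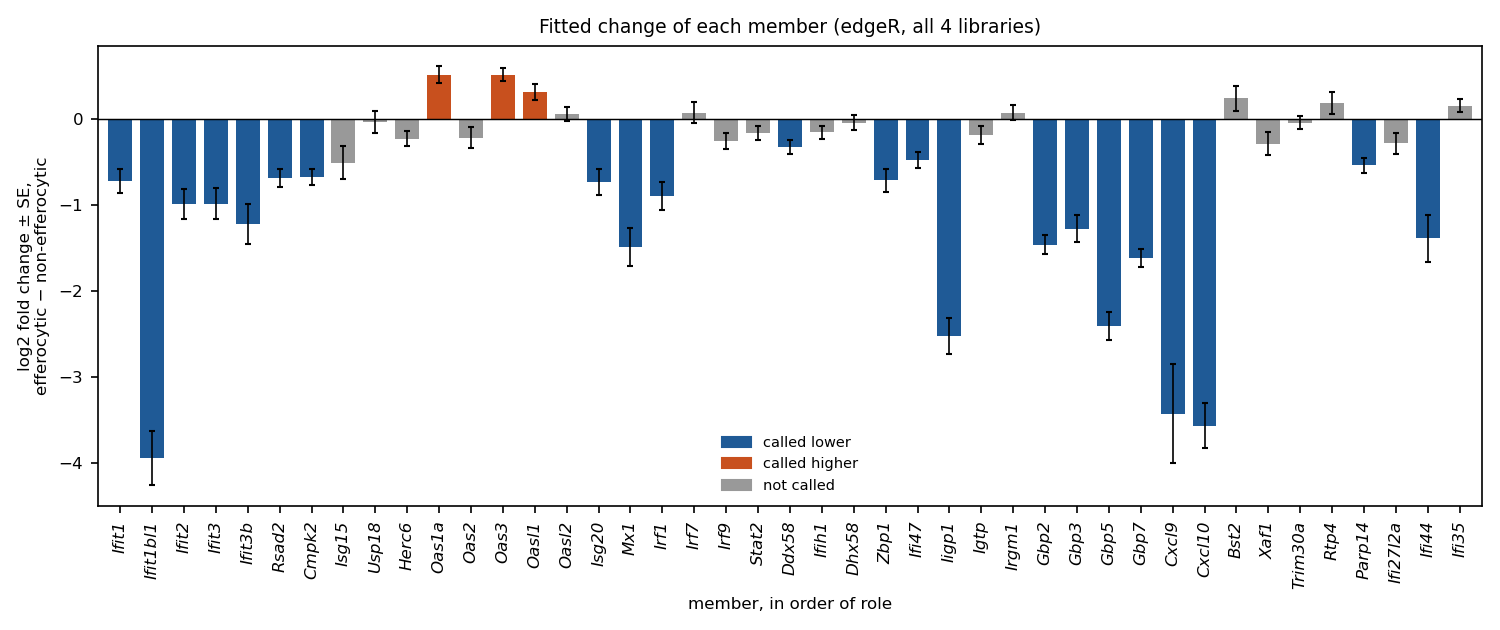
Fitted log2 fold change of each member (efferocytic minus non-efferocytic, all 4 libraries, experiment as a block), with bars for the estimate and lines for ± 1 SE. Blue bars are called lower (22), orange bars called higher (3) and grey bars not called (18). The deepest bars are Ifit1bl1, Cxcl10 and Cxcl9.

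Of the interferon-inducible chemokines, Cxcl10 fell, and Cxcl9 was called lower on very few UMIs. CXCL9 and CXCL10 draw activated T and NK cells through the receptor CXCR3. Cxcl10 stood at 14.6 CPM in non-efferocytic and 0.688 in efferocytic macrophages of Experiment 1, and at 11.5 and 1.37 in Experiment 2. The groups did not overlap, and the log2 fold change was −3.56 ± 0.26 (SE, adjusted p = 9.5e-05). In Cxcl10 the log2 CPM ratio was −4.40 in Experiment 1 (95% interval −4.74 to −4.09, counting error only) and −3.07 in Experiment 2 (−3.28 to −2.86).

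Cxcl10 was a message of very few cells. A UMI of it was found in 179 of 8280 non-efferocytic and 28 of 6695 efferocytic cells of Experiment 1, and in 228 of 13411 and 14 of 8408 cells of Experiment 2. With cells thinned to 5000 UMIs the shares were 1.48%, 0.228%, 1.23% and 0.0380%. No cell type that lacks interferon response was set apart, so that the share free RNA gives in cells was not measured. In barcodes of at most 100 UMIs, which mostly hold free RNA, Cxcl10 stood at 16.0 and 7.81 CPM in Experiment 1 and at 73.0 and 93.9 in Experiment 2 (non-efferocytic and efferocytic). In Experiment 2 the free level was thus far above that in the cells of both libraries, and it did not show the gap between groups that the cells showed.

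A single cell held 183 of the 212 Cxcl10 UMIs (86.3%) of efferocytic macrophages in Experiment 2, and the next cells held 10, 7 and 2. Without the cell with the most Cxcl10 UMIs in each library, 29 UMIs remained there, and the log2 ratio of Experiment 2 went from −3.07 to −5.80. In Experiment 1 it went from −4.40 to −4.57. Without the 1% of cells of each library with the largest share of UMIs from the other members, Bst2 and Ifi27l2a not counted, the ratios were −4.34 and −4.07. Cxcl10 was thus lower in efferocytic macrophages in both experiments with and without its high cells, and in Experiment 2 the size of the gap changed with 1 cell.

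Cxcl9 was near the limit of detection, with 24, 7, 98 and 4 UMIs (0.237, 0.0560, 0.708 and 0.0258 CPM) in the non-efferocytic and efferocytic libraries of Experiment 1 and then of Experiment 2. The fitted log2 fold change was −3.42 ± 0.58, with no overlap of the groups. Cxcl9 passed the filter on low counts through the non-efferocytic libraries, where it was higher, so that its call (adjusted p = 0.0030), which is 1 of the 22, is given as a description and not as support. Of the 98 UMIs in non-efferocytic macrophages of Experiment 2, 59.2% came from 1 cell, as did 6 of the 7 in efferocytic macrophages of Experiment 1. With 4 to 7 UMIs per efferocytic library, the size of the Cxcl9 change is loosely set, as its 95% intervals of −3.54 to −0.82 in Experiment 1 and −6.68 to −3.38 in Experiment 2 show.

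**Figure D3:**
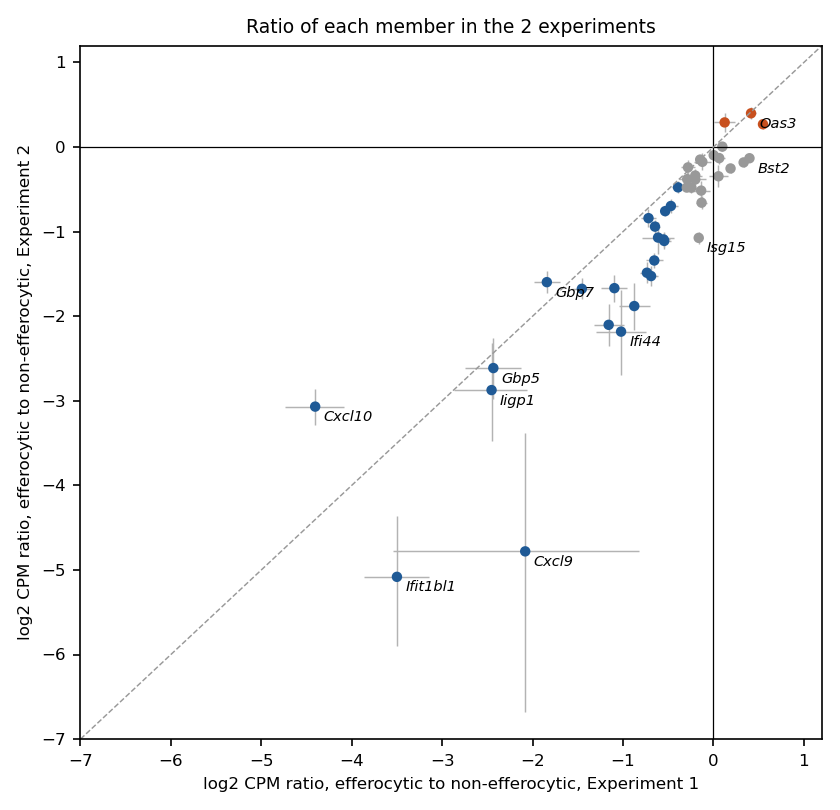
Log2 CPM ratio of efferocytic to non-efferocytic macrophages for each member, Experiment 1 on the horizontal and Experiment 2 on the vertical axis, with exact 95% intervals that cover counting error only. Colors are the calls (blue lower, orange higher, grey not called), and the dashed line marks equal ratios. Of the 43 members 39 lie below the dashed line, with the lower ratio in Experiment 2, and Cxcl10 lies above it.

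All 5 IFIT members, which bind foreign RNA ends or their partner IFITs and hold back translation, were called lower. Their log2 fold changes ran from −3.94 to −0.71 with a median of −0.99. The 5 genes lie together on chromosome 19, from Ifit2 (chr19:34550694-34576419) to Ifit1 (chr19:34640871-34650009, mm10, GENCODE M21). Ifit1bl1 had the lowest fitted value of all members over the 4 libraries, though Cxcl10 had the lower ratio in Experiment 1 and the lower fitted value without 1 cell per library. It went from 6.61 to 0.584 CPM in Experiment 1 and from 3.49 to 0.103 in Experiment 2 (log2 fold change −3.94 ± 0.31, adjusted p = 1.4e-04). The groups did not overlap for Ifit1bl1, which efferocytic macrophages held with 73 and 16 UMIs in all.

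Ifit1 fell less, from 33.2 to 22.8 CPM in Experiment 1 and from 18.4 to 8.52 in Experiment 2 (log2 fold change −0.71 ± 0.14, adjusted p = 0.0057). Ifit3 went from 35.8 to 22.2 and from 15.1 to 5.23 CPM (−0.98 ± 0.18, adjusted p = 0.0046). For Ifit1 and Ifit3 efferocytic macrophages of Experiment 1 lay above non-efferocytic ones of Experiment 2, and with no block neither was called (adjusted p = 0.45 and 0.49). Of the 100-base windows in the last 500 bases of Ifit3, 4.24% also occurred in Ifit3b, so that few of their reads could be shared.

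Rsad2 and Cmpk2, divergently transcribed neighbours on chromosome 12, make viperin and a mitochondrial nucleotide kinase, which together yield a nucleotide that stops viral polymerases. Rsad2 stood at 49.6 and 31.7 CPM in Experiment 1 and 27.9 and 14.5 in Experiment 2 (log2 fold change −0.68 ± 0.10, adjusted p = 0.0017). Cmpk2 stood at 24.1 and 14.6 CPM and at 13.7 and 7.62 (−0.67 ± 0.09, adjusted p = 0.0012). For both the experiments differed about as much as the groups, so that the groups overlapped, and without the block neither was called (adjusted p = 0.36 for Rsad2 and 0.30 for Cmpk2). The 1% of cells highest in the other members, chosen as for Cxcl10, held 39.2% and 49.6% of the Rsad2 UMIs in non-efferocytic and 19.2% and 33.2% in efferocytic libraries. Without the 1% of cells of each library highest in the members other than Bst2 and Ifi27l2a, the log2 fold change of Rsad2 was −0.31 and no longer called (adjusted p = 0.058).

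None of the 3 members of the ISG15 system passed the test. ISG15 is a ubiquitin-like protein that HERC ligases attach and USP18 removes, and USP18 also shuts down the type I receptor. Isg15 was at 68.8 and 61.5 CPM in Experiment 1 and at 36.5 and 17.3 in Experiment 2 (log2 fold change −0.50 ± 0.19, adjusted p = 0.070). The gap of Isg15 was much wider in Experiment 2, with a log2 ratio of −1.07 (95% interval −1.14 to −1.01) against −0.16 (−0.21 to −0.12) in Experiment 1. Herc6 was at 17.7 and 14.5 CPM and at 13.3 and 10.2 (−0.23 ± 0.09, adjusted p = 0.074), and Usp18 had a value of −0.03. With no filter on genes, or scaled to library totals, Isg15 was called lower, and scaled to UMIs per cell its value was 0.11.

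With TMM and the experiment as a block, the OAS family was the only role with members called higher. Scaled to UMIs per cell, Bst2, Ifi27l2a, Ifi35, Irf7, Irgm1, Rtp4 and Trim30a of other roles were called higher as well. OAS enzymes sense double-stranded RNA and make the 2′-5′ oligoadenylate that activates RNase L. Oas1a went from 38.2 to 55.8 CPM in Experiment 1 and from 32.0 to 38.6 in Experiment 2 (log2 fold change 0.52 ± 0.10, adjusted p = 0.0049). Oas3 went from 35.9 to 47.9 and from 18.2 to 24.0 CPM (0.51 ± 0.08, adjusted p = 0.0018). Oas1a was the 1 member with both efferocytic libraries above both non-efferocytic ones, while for Oas3 the experiments differed more than the groups.

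Oasl1 was also called higher (log2 fold change 0.31, adjusted p = 0.032 by edgeR), a call that was lost with DESeq2, with library totals and without the 5% of cells with the most UMIs. Oasl2, with 53.7 and 53.8 CPM in Experiment 1 and 31.2 and 29.1 in Experiment 2, did not pass (0.06 ± 0.08, adjusted p = 0.58), nor did Oas2 (−0.22). Isg20, a nuclease of single-stranded RNA placed in this role, fell (−0.73). Without the block none of the 3 higher members was called (adjusted p = 0.13 for Oas1a, 0.43 for Oas3 and 0.27 for Oasl1). Of the 100-base windows in the last 500 bases of Oas1a, 40.9% also occurred in its paralog Oas1g, so that reads of the 2 genes could be confused and the Oas1a value is uncertain. Each of the 3 had a ratio above 0 in both experiments. Fitted without the block and without the efferocytic library of Experiment 1, Oas3 turned to −0.098. Without the 1% of cells highest in the other members, chosen as for Cxcl10, Oas3 had log2 ratios of 0.47 and 0.51 and Oasl1 of 0.23 and 0.51.

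Mx1, a GTPase that traps incoming viral ribonucleoprotein, was at 8.20 and 3.67 CPM in Experiment 1 and at 4.65 and 1.08 in Experiment 2. The groups did not overlap, and the log2 fold change was −1.49 ± 0.22 (adjusted p = 0.0018). Mx1 was not called without the block (adjusted p = 0.18), and its value was −1.27 without the 1% of cells highest in the members other than Bst2 and Ifi27l2a.

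Of 4 transcription factors 1 was called lower and 0 higher, a share near the 19% of all tested genes called lower. It was Irf1, a factor that interferon-γ induces, with a fall of 0.89 on the log2 scale and no overlap of the groups. Irf7, which amplifies the interferon-α genes, stood at 74.3 and 84.7 CPM in Experiment 1 and at 49.2 and 41.2 in Experiment 2, so that the efferocytic library was the higher one in Experiment 1 and the lower one in Experiment 2 (log2 fold change 0.08 ± 0.12, adjusted p = 0.64). Irf9, the DNA-binding part of the complex that binds the ISRE, was at 45.8 and 38.7 CPM and at 40.5 and 29.0 (−0.26 ± 0.09, adjusted p = 0.059). Stat2, its partner, had a log2 fold change of −0.16 and did not pass. The groups did not overlap for Irf9, and the call was made when the 5% of cells with the most UMIs were left out.

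Of 4 sensors of foreign nucleic acid, 2 fell. Ddx58 encodes RIG-I, which binds the 5′ ends of viral RNA, and went from 36.1 to 27.5 CPM in Experiment 1 and from 25.1 to 18.1 in Experiment 2 (log2 fold change −0.33 ± 0.08, adjusted p = 0.015). Zbp1, a sensor of left-handed nucleic acid that can start necroptosis, went from 31.9 to 21.7 and from 20.5 to 9.61 CPM (−0.71 ± 0.14, adjusted p = 0.0052). Ifih1 and Dhx58, the relatives of Ddx58, had values of −0.15 and −0.04 and did not pass. DESeq2 did not call Ddx58, and scaled to UMIs per cell its value was 0.29.

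Of 8 IRG and GBP GTPases, which coat the vacuoles of intracellular microbes, 6 were called lower, with a median of −1.36 over the 8. The 4 GBP members lie in 1 stretch of chromosome 3, from Gbp5 (chr3:142493978-142522344) to Gbp2 (chr3:142620602-142638008). Gbp2, Gbp3, Gbp5 and Gbp7 had log2 fold changes of −1.46, −1.27, −2.41 and −1.61, with no overlap of the groups for any of them. These 4 were called with and without the block and under every scaling tried.

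Iigp1 fell by 2.52 on the log2 scale from 2.81 and 1.42 CPM in non-efferocytic macrophages. Ifi47 went from 30.1 to 21.7 CPM in Experiment 1 and from 18.5 to 11.4 in Experiment 2 (−0.48 ± 0.10, adjusted p = 0.0064, but 0.14 when scaled to UMIs per cell). Irgm1, which regulates the other IRG proteins and autophagy, was at 39.4 and 41.2 CPM and at 28.2 and 25.8 (0.07 ± 0.09, adjusted p = 0.54), and Igtp at −0.19 did not pass either. Members of this role, called or not, are known as targets of interferon-γ as well as of type I interferon.

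Of the 8 other effectors 2 were called lower, a share near the 19% of all tested genes. They were Parp14 (−0.54, but 0.08 when scaled to UMIs per cell) and Ifi44 (−1.38). Ifi27l2a, a small mitochondrial protein of high tonic expression, was at 993 and 810 CPM in Experiment 1 and at 759 and 544 in Experiment 2 (−0.28 ± 0.12, adjusted p = 0.10). Bst2, the membrane tether that holds budding virus on the cell, was at 465 and 613 CPM and at 361 and 330 (0.24 ± 0.15, adjusted p = 0.23). In CPM the 2 experiments thus went opposite ways in Bst2, with log2 ratios of 0.40 and −0.13. The medians over all genes were −0.16 and −0.08. Xaf1, Trim30a, Rtp4 and Ifi35 had log2 fold changes between −0.28 and 0.18 and did not pass.

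Many members were detected together in a minority of cells. With every cell thinned to 5000 UMIs, the median cell held 4 or 5 of the 43 members in each library. Cells with at least 10 members made up 15.8% of non-efferocytic and 13.4% of efferocytic cells in Experiment 1, and 6.11% and 2.72% in Experiment 2. In Experiment 1 the order was the other way at lower numbers, with at least 5 members in 47.5% of non-efferocytic and 53.5% of efferocytic cells. The highest percentile of cells began at 26 and 18 members in Experiment 1 and at 22 and 12 in Experiment 2. Cells under 5000 UMIs (1099 and 544 in Experiment 1, 3404 and 505 in Experiment 2) were left out of these shares.

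**Figure D4:**
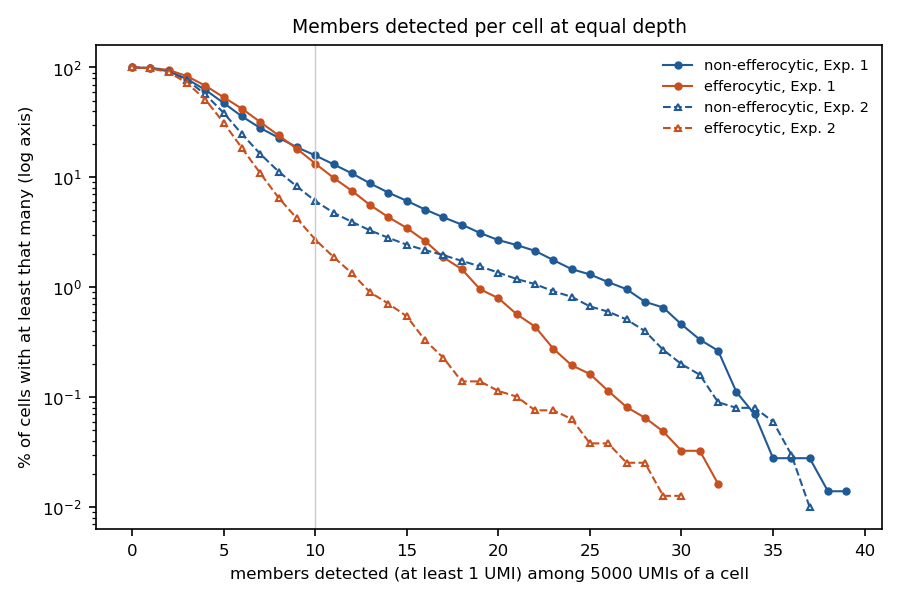
Percent of cells, on a log axis, with at least a given number of the 43 members detected among 5000 UMIs of each cell, by library. The grey line marks 10 members, where the libraries stand at 15.8% and 13.4% (Experiment 1) and 6.11% and 2.72% (Experiment 2), and the efferocytic curves (orange) drop faster to the right of it.

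The 1% of cells with the largest share of UMIs from the members other than Bst2 and Ifi27l2a (67 to 134 cells) held 12.8% of the UMIs of these 41 members in non-efferocytic and 6.94% in efferocytic macrophages of Experiment 1, and 16.6% and 7.93% in Experiment 2. The same cells held 0.815% to 0.899% of the UMIs of the median other gene. As these cells were chosen by their share of the 41 members, a larger share than for other genes was set by that choice. The level in a typical cell was set apart less than the level of the top cells. The median cell had 589 and 689 CPM of the 41 members in Experiment 1, higher in efferocytic macrophages, and 501 and 434 in Experiment 2, while the 99th percentile was 11906 and 5419 and then 7240 and 2785.

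How far a member rested on high cells differed widely. For each member, the cells with the largest share of UMIs from the rest of the list, Bst2 and Ifi27l2a not counted, were taken, so that the gene itself did not choose them. Among members with at least 100 UMIs in a library, these 1% of cells held a median of 10.9% and 12.7% of a member's UMIs in non-efferocytic libraries and 5.52% and 5.66% in efferocytic ones. The range was 1.09% to 87.3%, with Irf9 the lowest in 3 libraries and Ifi27l2a in the other. At least 25% was held for 9 and 13 members in the non-efferocytic and for 1 and 7 in the efferocytic libraries. The floor of 100 UMIs left 42 and 42 members in the former and 39 and 38 in the latter, so that the counts cover different members. In efferocytic macrophages of Experiment 1 it left out Ifit1bl1 (64.4%), Cxcl10 (62.8%), Iigp1 (40.6%) and Cxcl9 (0%). Those left out in Experiment 2 included Ifit1bl1 (62.5%), Iigp1 (63.3%), Gbp5 (19.5%) and Cxcl9 (0%). Ifit1, Ifit3b, Rsad2, Mx1, Gbp5 and Cxcl10 were among them in 3 of the 4 libraries.

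Leaving these cells out moved most ratios toward 0 and turned no median. The members' median log2 CPM ratio went from −0.39 to −0.30 in Experiment 1 and from −0.70 to −0.52 in Experiment 2, and 33 and 39 of the 43 members stayed below 0. In the fit, without the 1% of cells of each library highest in the 41 members, 21 of the 22 lower members were still called, Rsad2 being the exception, together with the same 3 higher members. The median went from −0.48 to −0.31. Ifit1 moved from −0.71 to −0.43 and Cmpk2 from −0.67 to −0.35, while Gbp2 went from −1.46 to −1.35, Gbp7 from −1.61 to −1.57 and Irf1 from −0.89 to −0.87.

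In each library 1 cell held the most UMIs of the 41 members. In efferocytic macrophages of Experiment 2 that cell had 32388 UMIs in all, 40 of the 43 members, 1278 UMIs of the 41, and the highest count of 21 members in its library. Its UMIs of the macrophage markers numbered 343, against 749 to 3183 in the corresponding cells of the other libraries, and those of the neutrophil-lineage markers 0. The corresponding cells of the other 3 libraries had 39 or 40 members, 512 to 562 UMIs of the 41 and the highest count of 5 or 6 members. In Rsad2 the cell of Experiment 2 gave 242 of 2253 UMIs, and in Ifit1 137 of 1323.

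**Figure D5:**
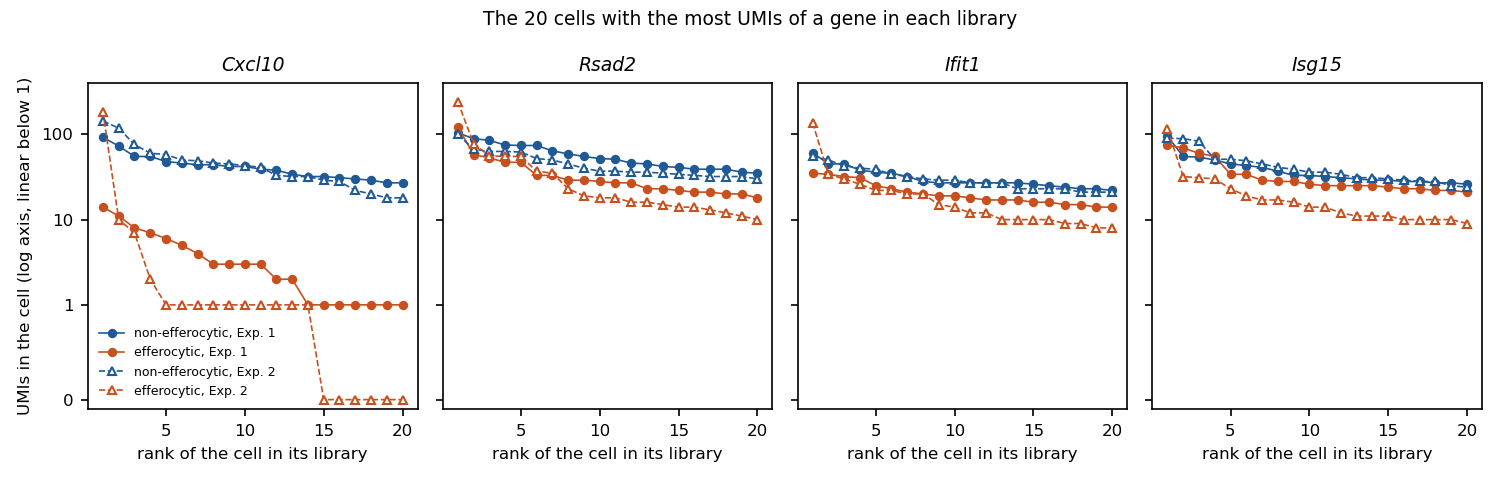
UMIs in the 20 cells of each library with the most UMIs of Cxcl10, Rsad2, Ifit1 and Isg15, by rank, on an axis that is logarithmic above 1. In the efferocytic library of Experiment 2 (open orange triangles) the first cell stands apart from the second, most of all for Cxcl10 with 183 UMIs against 10.

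Leaving out that 1 cell in each library left the counts at 22 lower and 3 higher and moved Cxcl10 from −3.56 to −5.02, Rsad2 from −0.68 to −0.76 and Ifit1 from −0.71 to −0.78. Markers of neutrophil-lineage cells, monocytes and fibroblasts moved with the groups, as given above, and the calls were repeated without cells that carried them. Markers of RM1 or epithelial cells summed to 0.306 and 0.128 CPM in Experiment 1 and to 8.44 and 7.13 in Experiment 2 (non-efferocytic and efferocytic). Cells with these markers, or with those of plasmacytoid dendritic cells, were not left out. Without cells with at least 1% of UMIs from the neutrophil-lineage list (24 to 122 cells per library), 23 members were called lower and 3 higher. Without cells with at least 2 UMIs of the monocyte list, 23 and 3 were called, and the same counts were found without cells with at least 2 UMIs of the fibroblast list (32 to 397 cells per library). The added member was Irf9 each time.

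MHC class II cells were taken as those with at least 5 UMIs summed over H2-Aa, H2-Ab1, H2-Eb1 and Cd74. They made up 13.9% and 15.1% of non-efferocytic and 2.54% and 3.08% of efferocytic libraries. Without them 22 members were called lower and 3 higher, with a median of −0.36 in place of −0.48. Without the barcodes that both libraries of Experiment 2 shared, the counts were again 22 and 3. Free RNA also differed between experiments. In barcodes of at most 100 UMIs, 12 and 19 of the 43 members stood above their level in cells in Experiment 1, and 39 and 42 in Experiment 2. Of all genes tested, 49.1% and 54.5% did so in Experiment 1, and 38.2% and 41% in Experiment 2. Its part in the members' values was not tested.

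The interferons themselves were almost absent. Of 21 interferon genes, 2 to 5 had any UMI in a library, with 6 to 14 UMIs in all, and none passed the filter on low counts. Ifnb1 had 6 and 3 UMIs in the non-efferocytic libraries and 0 in the efferocytic ones, where a count of 0 allows up to 0.0240 CPM in Experiment 1 and 0.0193 in Experiment 2 (3 UMIs of the library, counting error only). Ifng had 0 UMIs in both libraries of Experiment 1 and 3 and 5 in those of Experiment 2. No difference in interferon genes was detectable at this depth.

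Of 6 interferon receptor genes 5 were tested, and 1 was called lower and 1 higher, shares near the 19% and 19.9% of all tested genes. Ifngr1, the ligand-binding chain for interferon-γ, was called lower, from 162 to 89.6 CPM in Experiment 1 and from 163 to 98.6 in Experiment 2 (log2 fold change −0.69 ± 0.08, adjusted p = 7.8e-04). Il10rb, a chain that the interferon-λ and IL-10 receptors share, was called higher (0.37 ± 0.09, adjusted p = 0.016). Ifnar1 (0.11), Ifnar2 (−0.20) and Ifngr2 (0.03) did not pass.

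In the lists that follow, counts stand beside the 19.9% of all tested genes called higher and 19% called lower. Of 19 tested genes on a list of interferon induction, which also holds genes that restrain it (Samhd1, Adar and the RNase H2 genes), 2 were called higher and 6 lower, among them Tlr9 (−1.80), the sensor of unmethylated DNA. Of 8 negative regulators 3 were called lower, Socs3 (−1.68) with the largest change. Of 77 tested further interferon-stimulated genes outside the list, 6 were called higher and 29 lower, with a median of −0.20. The 10 of them called with a fall of at least 1 on the log2 scale were Ifi209, Ifi213, Ifitm1, Slfn1, Gbp4, Tgtp2, Ms4a4c, Ms4a6b, Phf11a and Ccl5. For Gbp4, efferocytic libraries had 0.0240 and 0.0837 CPM against 0.178 and 0.210, so that it passed the filter on low counts through the non-efferocytic ones, and its call is a description only.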

How the data were processed

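Per the labels and methods, the authors mapped reads of a 10X Genomics 3′ kit to mm10 with Cell Ranger 3.0.0 (the headers of Experiment 2 name 3.1.0) and deposited UMI counts for every barcode, raw and without a filter on cells. Their Seurat 3.1 integration and tests on cells were not repeated. Cell totals were 101216659, 124997895, 138349389 and 155224183 UMIs (non-efferocytic and efferocytic, Experiment 1, then Experiment 2).

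UMIs were summed per library over cells and tested with edgeR 4.0.16 in R 4.3.3 (TMM, filterByExpr, quasi-likelihood test, experiment as a block, Benjamini-Hochberg adjustment). SE is the log2 fold change divided by the square root of F. The labels mark the shared experiment, and libraries of an experiment deviated together from their group means (correlation 0.786 over 7097 genes). CPM ratios within an experiment have exact conditional 95% intervals for counting error only. They are not TMM-scaled. Over all genes, the median was −0.12 with library totals and −0.02 with TMM (log2 scale). UMI counts of the 3′ kit were not divided by gene length. Doublets were not called. On simulated counts for this comparison, over 14075 genes, edgeR called 75 of 100 genes changed 1.5-fold, 100 of 100 changed 2-fold and 9 of 13875 unchanged genes. The simulation gave all genes the same dispersion and both groups the same shift between experiments, with few genes changed. The real data differ in this, so that their rate of false calls was not measured.

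Members, lists and alternatives were chosen with earlier results of these data known. Full values are given for the 2 most abundant members of each role and for the 2 highest and 2 lowest signed log2 fold changes, with any member past 1.5-fold in opposite directions in the 2 experiments (there was none), and the other members by counts or single values. Leaving out the 1 highest cell, the cells highest in the 41 members, marker-bearing cells or shared barcodes was added after the data were seen. DESeq2 1.42.0 was an alternative.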

Additional observations from a re-analysis of the deposited data

Results flagged for a closer look

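For 4 members the exact 95% intervals of the log2 CPM ratio, which cover counting error only, lay above 0 in Experiment 1 and below 0 in Experiment 2, so that efferocytic macrophages had the higher CPM, a share of captured mRNA, in one experiment and the lower CPM in the other. In UMIs per cell the log2 ratios were above 0 in both experiments, at 1.01 and 0.71 for Bst2, 0.94 and 0.66 for Rtp4, 0.80 and 0.59 for Irf7 and 0.67 and 0.71 for Irgm1. The difference between the experiments was not tested, since each has 1 library per group. Bst2 had ratios of 0.40 (0.38 to 0.41) and −0.13 (−0.15 to −0.11). Rtp4 had 0.33 (0.29 to 0.38) and −0.18 (−0.24 to −0.13). Irf7 had 0.19 (0.15 to 0.23) and −0.25 (−0.30 to −0.20). Irgm1 had 0.063 (0.0034 to 0.12) and −0.13 (−0.20 to −0.07). Over all genes the median log2 CPM ratio was −0.16 in Experiment 1 and −0.08 in Experiment 2, so that 0 is not the level of the median gene.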

How the results depend on the processing

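The experiments named in the labels pair the libraries, and the replicate block carried that pairing wherever a fit is not said to lack it. With no replicate block, 0 members were called higher and 9 lower, with a median log2 fold change of −0.31, and Usp18 turned to 0.033. Over all genes, 2761 were called higher and 2636 lower with the block, 1285 and 1073 without it, 1971 and 1418 with DESeq2, and 6921 and 586 scaled to UMIs per cell. Scaled to UMIs per cell, 11 members were called higher and 11 lower and the median was 0.14. The values that turned were 0.46 for Ifih1, 0.29 for Ddx58, 0.11 for Isg15, 0.40 for Oas2, 0.39 for Herc6, 0.58 for Usp18, 0.58 for Trim30a, 0.46 for Stat2, 0.36 for Irf9, 0.14 for Ifi47, 0.43 for Igtp, 0.33 for Xaf1, 0.58 for Dhx58, 0.34 for Ifi27l2a and 0.079 for Parp14. All genes had a median of 0.60 on that scale, which keeps the larger number of UMIs captured per efferocytic cell. Scaled to library totals, 29 members were called lower and 2 higher, where over all genes 3700 were called lower and 1847 higher, and Oasl2 (−0.047), Irf7 (−0.032) and Irgm1 (−0.034) turned. Of all calls over genes, 51.2% were higher with TMM, 33.3% with library totals and 92.2% with UMIs per cell. Without the 1% of cells highest in members, the median was −0.33, Usp18 was at 0.10 and Dhx58 at 0.0093. With Bst2 and Ifi27l2a not counted in that choice of cells, the median was −0.31, Usp18 was at 0.11 and Dhx58 at 0.0045. Without MHC class II cells, Usp18 was at 0.060, Trim30a at 0.0034 and Dhx58 at 0.011. The cause of these turns was not tested.

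Leaving out 1 library, without the block and with the lone library of a group assumed to vary like the other group, the members called higher ranged from 0 to 1, those called lower from 0 to 20 and the median from −0.93 to −0.0073. The values that turned ranged from −0.25 to 0.72 for Bst2, −0.47 to 0.35 for Dhx58, −0.53 to 0.052 for Herc6, −0.61 to 0.036 for Ifi27l2a, −0.10 to 0.41 for Ifi35, −0.46 to 0.15 for Ifih1, −0.46 to 0.087 for Igtp, −0.51 to 0.61 for Irf7, −0.32 to 0.44 for Irgm1, −1.53 to 0.37 for Isg15, −0.74 to 0.27 for Oas2, −0.098 to 1.11 for Oas3, −0.47 to 0.54 for Oasl2, −0.54 to 0.82 for Rtp4, −0.56 to 0.20 for Stat2, −0.35 to 0.25 for Trim30a, −0.64 to 0.50 for Usp18 and −0.93 to 0.30 for Xaf1. Within these ranges, leaving out the non-efferocytic library of Experiment 1 gave a median of −0.040, with Isg15 at 0.24 and Stat2 at 0.16. Leaving out that of Experiment 2 gave −0.11 for Irf7, −0.11 for Irgm1 and −0.038 for Rtp4. Leaving out the efferocytic library of Experiment 2 gave 6 members called lower and a median of −0.0073, with Ifih1 at 0.12 and Trim30a at 0.24. These fits have few residual degrees of freedom. UMI depth limits members with few UMIs, such as Cxcl9, and the interferon genes.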
